A study of Homo sapiens with 17 samples.

Results

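The cytosolic ribosomal protein genes encode the proteins of the ribosome that translates nuclear messages. They were taken here as the protein-coding genes of the RefSeq GRCh38 gene table whose symbol is RPL, RPS, RPLP or RPSA in its plain form, with the RPS6K kinases and the L-suffixed paralogs left out. This gave 77 genes of 19974 protein-coding genes on chromosomes 1 to 22 and X, 46 of them with an RPL-type name (large subunit and stalk) and 31 with an RPS-type name (small subunit). A gene counted as having a peak when the summit of a peak lay inside it or within 2 kb of either end. By this rule 41 of the 77 genes (53.2%) had a peak in at least 1 of the 8 combined peak lists, and 36 had none. The share was 59.0% over all protein-coding genes and 38.2% over those no longer than the longest ribosomal protein gene. The members were chosen by name and not by any measured value, though with earlier results of these data known.

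The ribosome is made of a small subunit, which decodes the message, and a large subunit, which joins amino acids. Ribosomal protein genes are short, very actively transcribed housekeeping genes, and their RNAs typically begin with a C followed by a run of pyrimidines, the 5′ terminal oligopyrimidine motif through which their translation follows mTOR activity. Mutations in several of them cause Diamond-Blackfan anaemia, a failure of red cell production. The FOXA proteins are forkhead pioneer factors, and SOX2 is a pioneer factor of the HMG-box family. Pioneer factors are best known for binding closed chromatin at distal sites, not for housekeeping promoters.

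The peaks come from ChIP-seq with a Flag antibody in U2OS cells, an established human osteosarcoma line. The 8 factor groups were FOXA1, FOXA2 and FOXA3 at full length, each of the same proteins without its CTD (C-terminal domain), SOX2 at full length, and SOX2 fused to the FOXA2 CTD. All were Flag-tagged proteins expressed from a Tet-on construct after 4 days of doxycycline at 500 ng/ml per the treatment labels, and each group had 2 biological replicates besides 1 input sample for the series. The labels do not say whether a line is 1 clone. Each group is represented by 1 combined list made from both replicates, so no difference between lists has a replicate check, no test was possible, and the Wilson 95% intervals given with shares cover counting error over genes only.

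Among the genes with peaks in the most lists, 4 also had a summit inside the window from 250 bases before to 50 after an annotated start. Their RefSeq sequences (GRCh38.p14) are printed here 5′ to 3′ on the gene's own strand because start peaks described further on overlap them. Several summits of these peaks lie outside the windows. Those inside were of both FOXA3 lists and the fusion at RPS29, and of FOXA2 full length and the fusion at RPS24. At RPL4 only the fusion's summit was inside, and at RPL14 those of FOXA1 full length and FOXA2 CTD-deleted. Capitals mark the longest unbroken run of C and T that touches the 25 bases on either side of the start. The windows are RPS29, chr14:49598661-49598960, minus strand; RPS24, chr10:78033613-78033912, plus strand; RPL4, chr15:66504806-66505105, minus strand; and RPL14, chr3:40457089-40457388, plus strand.
RPS29: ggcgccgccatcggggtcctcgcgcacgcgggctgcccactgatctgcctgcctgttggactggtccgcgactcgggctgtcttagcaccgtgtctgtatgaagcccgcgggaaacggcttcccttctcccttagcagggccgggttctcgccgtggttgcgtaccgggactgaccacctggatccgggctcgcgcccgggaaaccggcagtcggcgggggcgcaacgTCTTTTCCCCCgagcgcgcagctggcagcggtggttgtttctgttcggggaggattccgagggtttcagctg
RPS24: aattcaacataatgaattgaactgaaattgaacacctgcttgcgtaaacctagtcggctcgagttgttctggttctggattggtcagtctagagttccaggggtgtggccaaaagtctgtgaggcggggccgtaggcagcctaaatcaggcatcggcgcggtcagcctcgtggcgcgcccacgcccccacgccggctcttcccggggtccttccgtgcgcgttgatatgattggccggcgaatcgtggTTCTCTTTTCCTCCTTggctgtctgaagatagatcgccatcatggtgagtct
RPL4: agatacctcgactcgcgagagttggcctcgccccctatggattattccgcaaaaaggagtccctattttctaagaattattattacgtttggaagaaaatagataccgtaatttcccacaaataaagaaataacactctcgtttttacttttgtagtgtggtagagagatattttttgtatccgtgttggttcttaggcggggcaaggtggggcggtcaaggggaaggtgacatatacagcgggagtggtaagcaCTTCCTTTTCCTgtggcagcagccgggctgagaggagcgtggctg
RPL14: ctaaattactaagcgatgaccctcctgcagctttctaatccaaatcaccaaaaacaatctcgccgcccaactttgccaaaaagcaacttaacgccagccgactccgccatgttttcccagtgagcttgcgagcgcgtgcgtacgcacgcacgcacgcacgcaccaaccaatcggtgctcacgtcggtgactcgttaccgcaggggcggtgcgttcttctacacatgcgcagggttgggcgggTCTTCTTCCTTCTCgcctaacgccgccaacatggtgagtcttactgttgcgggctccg
The runs are 11, 16, 12 and 14 bases long in this order. The run of RPS29 ends ahead of the annotated start, with its first base at position -22, while that of RPS24 crosses the start from position -2. None of the windows held any of the forkhead or SOX words spelled out in the next paragraph on either strand, which says only that these letters are not in these windows. The sequence under the summits outside these windows was not searched.

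The promoter table held 77 windows for 62 of the ribosomal protein genes, and 22132 windows for all protein-coding genes. A forkhead word occurred in 5 ribosomal protein windows (6.49%, against 10.1% of all coding windows). By word, TGTTTAC was in 0 (against 2.85%), TGTTTGC in 1 (against 3.40%), TATTTAC in 0 (against 2.02%) and TATTTGC in 4 (5.19%, against 2.41%). A SOX word was in 8 (10.4%, against 20.2%), ACAATG in 3 and the other word, ACAAAG, in 5. The ETS word CCGGAAG was in 26 windows (33.8%, against 12.8%), and the YY1-like word AAGATGG in 8 (10.4%, against 6.05%). TATAAA was in 5 (6.49%, against 9.46%). At least 1 of 3 pyrimidine words, which do not contain each other but can overlap, was in 61 (79.2%, against 39.7%). The word CTTTCC was in 37 (48.1%, against 26.5%), CTTTTCC in 20 (26.0%, against 7.97%) and CTCTTCC in 23 (29.9%, against 11.8%). All words were searched on both strands. On the gene strand, 46 windows (59.7%, against 4.55%) began their transcript exactly with C and 4 further pyrimidines, and the longest pyrimidine run near the start had a median of 12 bases, against 5 in all coding windows. The median GC content was 58.7%, against 62.3%. Of the 18 ribosomal protein windows that held a summit of a combined list, 1 (RPS4X, a small-subunit gene of the X chromosome) held a forkhead word and 4 a SOX word. Of the 59 windows without a summit, 4 held a forkhead word and 4 a SOX word.

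The lists differ in size and in how strictly they were limited, which bears on every count. They hold 1375 (SOX2) to 53415 (FOXA2 CTD-deleted) peaks, and their weakest peaks have an irreproducible discovery rate (IDR, a measure of how well a peak's rank repeats between replicates) from 0.01 in the FOXA3 CTD-deleted list to 0.920 in the fusion list. The depth of the libraries is unknown. Of the FOXA3 full-length list, 5012 rows are identical to rows of the FOXA3 CTD-deleted list. The strength of a peak is used below for the lower of its −log10 p values in both replicates, as deposited by the authors, and its rank is given as a percentage from the top of its list. The replicate columns carry no replicate number and are called a and b.

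Ribosomal protein genes had peaks in the FOXA1, FOXA2 and fusion lists, in 2 genes for FOXA3, and in 0 for SOX2. FOXA1 full length had a peak at 24 of 77 genes, or 31.2% (21.9 to 42.2), against 38.2% of all protein-coding genes. FOXA1 CTD-deleted had 12, or 15.6% (9.15 to 25.3), against 37.1%. FOXA2 full length had 24, or 31.2% (21.9 to 42.2), against 41.7%, and FOXA2 CTD-deleted 16, or 20.8% (13.2 to 31.1), against 42.2%. The shares of ribosomal protein genes were thus below the coding share in these lists, and in the CTD-deleted lists the interval lay wholly below it. Both FOXA3 lists had 2 genes, RPS24 and RPS29, or 2.6% (0.715 to 8.98), against 10.4% and 11.8%, and the rows behind them are among the identical ones. SOX2 had 0 of 77, with an upper Wilson bound of 4.75%, against 0.350% of coding genes. The SOX2-FOXA2 CTD fusion had 12, or 15.6% (9.15 to 25.3), against 11.9%.

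Gene length moves with these shares. Ribosomal protein genes have a median length of 5011 bases, against 24170 for all protein-coding genes, so the 2 kb rule covers less DNA around them. Among the 10688 protein-coding genes no longer than RPS29, the longest ribosomal protein gene at 27723 bases, 18.4% had a peak for FOXA1 full length, 14.5% for FOXA1 CTD-deleted, 21.5% for FOXA2 full length, 20.5% for FOXA2 CTD-deleted and 5.62% for the fusion. Beside these shorter genes the ribosomal protein share was the higher value in each of these lists, by 1.12 percentage points for FOXA1 CTD-deleted, 0.252 for FOXA2 CTD-deleted and 12.8 for FOXA1 full length. Within the 77 genes, length differed less between those with a peak in any combined list (median 5057 bases) and those without (4486).

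**Figure D1:**
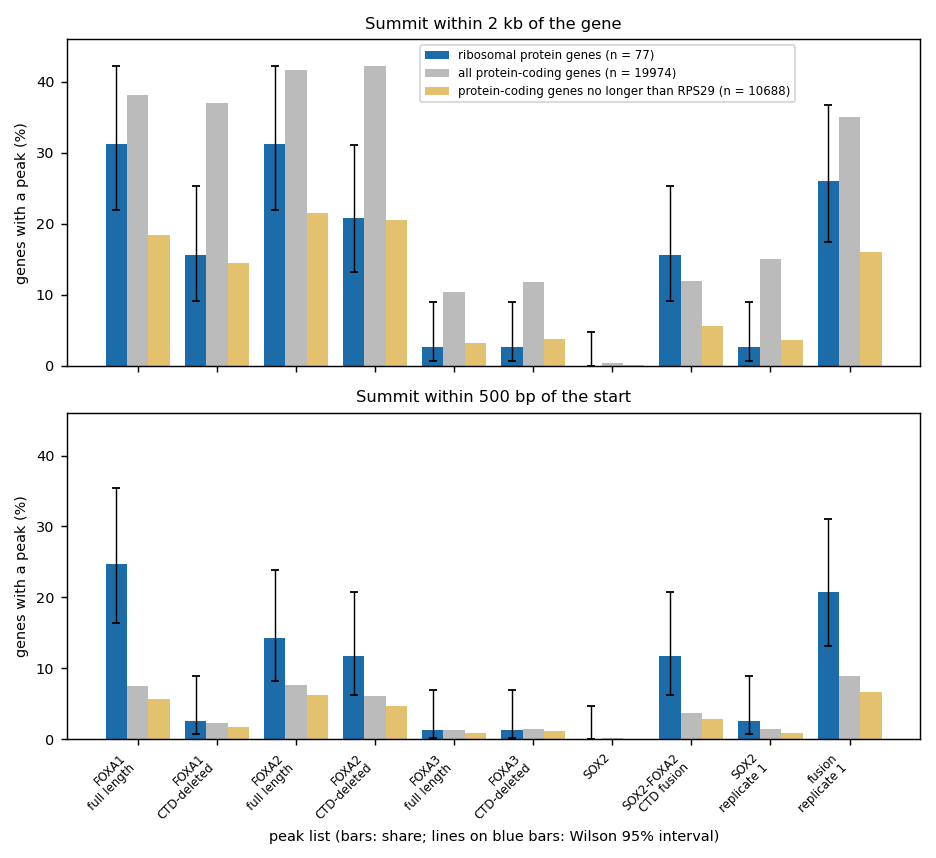
Share of genes with a peak in each list, with summits within 2 kb of the gene (top) or within 500 bp of the start (bottom). Blue bars are the 77 ribosomal protein genes with Wilson 95% intervals, grey bars all 19974 protein-coding genes and yellow bars the 10688 protein-coding genes no longer than RPS29. In the bottom panel the FOXA1 full-length bar of the ribosomal protein genes reaches 24.7%, against 7.58% of all coding genes, and the FOXA1 CTD-deleted bar 2.6%, against 2.28%.

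At gene starts the order was the other way round in several lists. FOXA1 full length had a summit within 500 bp of the start of 19 ribosomal protein genes, or 24.7% (16.4 to 35.4), against 7.58% of coding genes. FOXA2 full length had 11, or 14.3% (8.17 to 23.8), against 7.64%, and FOXA2 CTD-deleted 9, or 11.7% (6.27 to 20.7), against 6.04%. The fusion also had 9, or 11.7%, against 3.76%. FOXA1 CTD-deleted had 2, RPL4 and RPL23A, or 2.6% (0.715 to 8.98), against 2.28%. Each FOXA3 list had 1 (RPS29), or 1.3%, against 1.27% and 1.51%, and SOX2 had 0, against 0.130%. For the 15 ribosomal protein genes and 4162 coding genes without an entry in the promoter table either end counted as the start. With the 62 and 15812 genes that have an entry, the shares were 27.4% against 7.80% for FOXA1 full length, 14.5% against 7.55% for FOXA2 full length and 11.3% against 3.89% for the fusion. For FOXA2 CTD-deleted 8 ribosomal protein genes (12.9%) and 949 coding genes had such a summit. For FOXA1 CTD-deleted the order turned, with 1.61% against 1.98%, since RPL23A has no entry.

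The design compares each FOXA protein with and without its CTD. For FOXA1, 8 ribosomal protein genes (10.4%) had a peak in both lists, against 28.9% of all coding genes and 8.99% of those no longer than RPS29. They were RPL4, RPL14, RPL23A, RPL36A, RPL37, RPLP1, RPS24 and RPS29. A further 16 (20.8%) had one at full length only, against 9.25% of all coding genes and 9.39% of the shorter ones. After CTD deletion only there were 4 (5.19%: RPL6, RPL7, RPL31 and RPL36), against 8.17% and 5.47%. The count went from 24 to 12, a ratio of 0.500, while the count over all coding genes went from 7626 to 7411, a ratio of 0.972, and that over the shorter genes had a ratio of 0.787. At starts it went from 19 to 2, a ratio of 0.105, and over all coding genes from 1514 to 456, a ratio of 0.301. With only the genes that have an annotated start it went from 17 to 1, and over coding genes from 1233 to 313. The direction over whole genes depends on the limit of the lists. With the FOXA1 full-length list held to the stricter IDR limit of the CTD-deleted list, it had 8 ribosomal protein genes against 12 (and 3543 coding genes against 7411), and at starts 3 against 2 (and 384 coding genes against 456, so the coding order at starts turned too). With equal numbers of the strongest peaks the counts were 24 and 11, and 7626 and 6337 over coding genes.

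For FOXA2, 12 ribosomal protein genes (15.6%) had a peak in both lists, against 32.6% of coding genes and 12.1% of the shorter ones. At full length only there were 12 (15.6%), against 9.15% and 9.45%, and after CTD deletion only 4 (5.19%: RPL21, RPL34, RPL37 and RPS3), against 9.66% and 8.46%. The totals of 24 and 16 became 16 and 16 when both lists were held to the stricter of their IDR limits, with 6697 and 8438 over coding genes. With equal numbers of the strongest peaks the totals were 24 and 13, and 8337 and 7792 over coding genes. At starts, 5 genes (6.49%) had a summit in both lists, against 2.83% of coding genes, 6 (7.79%) at full length only, against 4.81%, and 4 (5.19%) after deletion only, against 3.2%. For FOXA3 both genes were in both lists and 0 in either list alone, against 0.105% and 1.54% of coding genes. For SOX2 and the fusion, 0 genes were in both, 0 in the SOX2 list only, against 0.105% of coding genes, and 12 in the fusion list only, against 11.6%. With equal numbers of the strongest peaks the fusion had 1 ribosomal protein gene and SOX2 0, beside 184 and 70 of the 19974 coding genes. When both were held to the SOX2 limit both had 0, beside 29 and 70, so these counts are too low to compare.

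**Figure D2:**
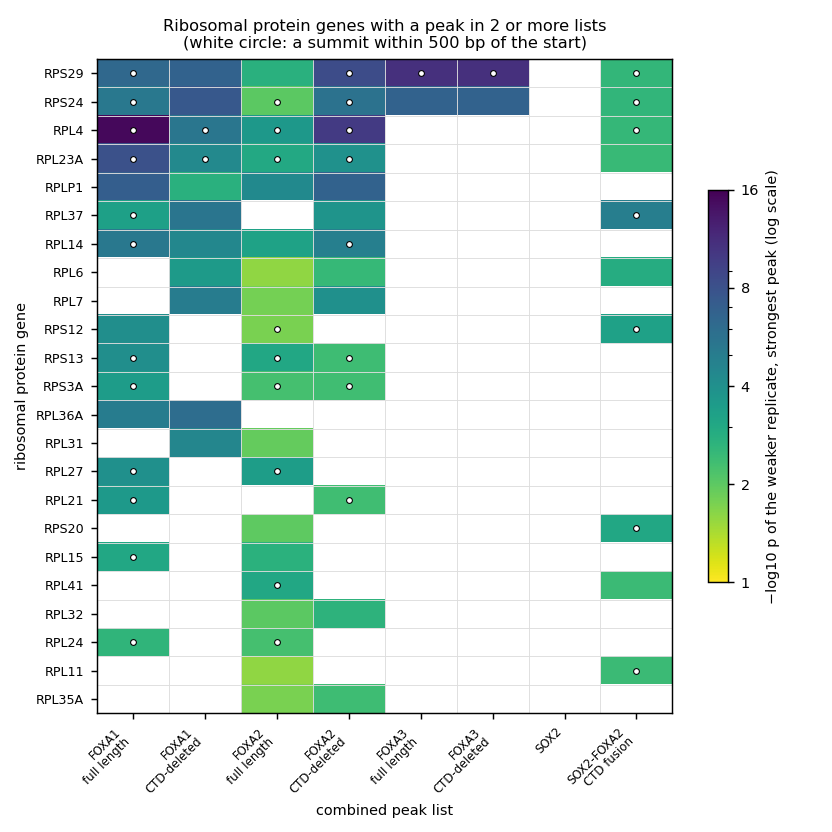
Strength (−log10 p of the weaker replicate, log colour scale) of the strongest peak at each of the 23 ribosomal protein genes with a peak in at least 2 combined lists, in rows, by list, in columns. White circles mark a summit within 500 bp of the start, and empty cells have no peak. RPS29 and RPS24 fill 7 of the 8 columns, the SOX2 column is empty, and the FOXA1 CTD-deleted column has 2 circles, at RPL4 and RPL23A.

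Among the small-subunit genes, RPS29 and RPS24 recurred most, with a peak in 7 of the 8 combined lists each. RPS29, a small zinc-binding protein of the subunit's head, lies at chr14:49570988-49598710 on the minus strand. Over its start, the FOXA3 lists held 1 identical row with −log10 p values of 10.9 and 12.3 and a summit 10 bases into the gene. At the same place FOXA2 CTD-deleted had 10.5 and 8.43, in the top 4.44% of its list. FOXA1 full length had 3.52 and 18.6, and the fusion 2.55 and 5.47. The start of LRR1, the neighbouring gene, lies 10 bases from the fusion's summit and 240 from that of FOXA3, so these peaks cannot be assigned to RPS29 alone.

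Inside RPS29 a site 5.4 kb from the start was shared by the FOXA1 and FOXA2 lists. Its summits lay within 63 bases of each other. It had 14.9 and 6.28 in FOXA1 full length, 6.72 and 11.6 in FOXA1 CTD-deleted, 2.74 and 5.34 in FOXA2 full length, and 9.73 and 6.85 in FOXA2 CTD-deleted. A further site, 11.7 to 11.9 kb in, was at RN7SL1, which encodes the 7SL RNA of the signal recognition particle and lies within RPS29. It was weaker in FOXA1 full length (2.96 and 4.97) and FOXA2 CTD-deleted (5.35 and 2.58), and uneven in FOXA2 full length (2.46 and 27.8). The summits of this site lie within 500 bp of that separate non-coding gene, so its peaks cannot be assigned to RPS29 alone. The promoter table held 1 start for RPS29, whose first bases are TGGCA, not a C and pyrimidines. Whether RPS29 has another start nearer this site was not examined.

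RPS24, a small-subunit protein needed for maturation of the small-subunit rRNA and a Diamond-Blackfan anaemia gene, lies at chr10:78033863-78056806 on the plus strand. Near its start, FOXA1 full length had −log10 p values of 3.97 and 5.53, FOXA2 full length 2.02 and 7.00, FOXA2 CTD-deleted 5.64 and 6.22, and the fusion 4.95 and 2.57. The summits span 335 bases, from 322 before the start to 13 after it. A second site 4.4 kb into the gene, with summits within 49 bases, had 7.49 and 25.3 in FOXA1 CTD-deleted, the strongest ribosomal protein peak of that list, 4.33 and 5.80 in FOXA2 CTD-deleted, and 6.66 and 8.00 in the row that both FOXA3 lists hold. Neither full-length FOXA1 nor full-length FOXA2 had a peak at this second site.

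Other small-subunit genes had peaks mostly at the start. RPS13 had −log10 p values of 4.08 and 15.7 in FOXA1 full length, 3.02 and 12.5 in FOXA2 full length, and 4.33 and 2.36 in FOXA2 CTD-deleted, with summits 8 to 212 bases before the start. RPS3A had 3.45 and 7.55, 2.27 and 4.99, and 2.34 and 3.13 in the same lists. RPS12 had 4.08 and 5.33 in FOXA1 full length at 1117 bases before its start, 2.27 and 1.74 in FOXA2 full length, and 4.95 and 3.29 in the fusion at 55 bases before it. These 3 genes had no peak in the FOXA1 CTD-deleted list. RPS20 had 3.03 and 7.30 in the fusion at 77 bases from a gene end, and 1.99 and 6.37 in FOXA2 full length at 885 bases. A further 8 RPS genes had a peak in 1 list each, with strengths from 2.34 (RPS3, of the mRNA entry channel) to 3.27 (RPS27). Among them, RPS27A, which encodes a fusion of ubiquitin and a ribosomal protein, had its FOXA1 full-length summit 79 bases from the start of CLHC1. In all, 14 of the 31 RPS genes (45.2%) had a peak in a combined list, against 59.0% of coding genes and 38.2% of the shorter ones.

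Among the large-subunit genes, RPL4 had the strongest peak of the whole set. RPL4, whose long loop lines the exit tunnel of the ribosome, lies at chr15:66498015-66504855 on the minus strand. FOXA1 full length had −log10 p values of 15.1 and 21.5 there, in the top 0.773% of its list, with the summit 312 bases before the start. FOXA1 CTD-deleted had 5.36 and 15.2, FOXA2 full length 3.79 and 3.39, and FOXA2 CTD-deleted 9.96 and 14, with summits 308, 310 and 292 bases before the start. These summits thus lay at nearly the same point in all 4 lists.

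The start of ZWILCH, a kinetochore protein gene, is 159 to 179 bases from them, nearer than that of RPL4. The fusion's summit at RPL4 was 24 bases before the start, with 3.77 and 2.52. FOXA2 full length had a separate peak in the 3′ part of RPL4, 6.28 kb from the start and 811 bases from the start of SNAPC5. Its values were 3.64 and 52.7, the latter the highest −log10 p of a replicate at any ribosomal protein gene.

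RPL23A, a protein at the tunnel exit, had a peak within 500 bp of a gene end in all 4 FOXA1 and FOXA2 lists. Its −log10 p values were 8.07 and 10.1 in FOXA1 full length, 4.33 and 6.15 in FOXA1 CTD-deleted, 3.00 and 22.5 in FOXA2 full length, and 5.86 and 3.92 in FOXA2 CTD-deleted. The FOXA2 full-length summit lies apart from the others, within 500 bp of the snoRNA gene SNORD42B in the gene. The fusion peak counted for RPL23A (2.46 and 3.86) is 158 bases from the start of TLCD1.

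RPL37, a zinc-binding protein, carried peaks at both ends. Beyond 1 end, by 1075 to 1235 bases, FOXA1 full length had 8.17 and 3.32, FOXA1 CTD-deleted 5.47 and 12.9, and FOXA2 CTD-deleted 3.80 and 4.15. Close to an end, FOXA1 full length had 2.79 and 6.36 and the fusion 4.87 and 6.49. FOXA2 CTD-deleted also had a peak inside the gene, with 5.95 and 3.05, within 500 bp of the snoRNA gene SNORD72. The fusion peak, in the top 10.3% of its list, was the strongest of that list at a ribosomal protein gene. RPL14 had a site 10.8 to 10.9 kb from its start, near the 3′ end, with summits within 68 bases in all 4 FOXA1 and FOXA2 lists. The values there were 5.30 and 9.61, 4.44 and 7.38, 3.84 and 3.23, and 5.27 and 4.85 in the order FOXA1 full length, FOXA1 CTD-deleted, FOXA2 full length and FOXA2 CTD-deleted. At its start, printed above, FOXA1 full length had 5.30 and 3.24 and FOXA2 CTD-deleted 2.80 and 3.13.

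RPLP1, which encodes the P1 protein of the stalk that recruits translation factors, had its main peaks in its 3′ part, 2.19 to 2.79 kb from the start. They had 6.95 and 15.6 in FOXA1 full length, 4.27 and 25.1 in FOXA2 full length, and 6.68 and 10.3 in FOXA2 CTD-deleted, in the top 12.7%, 10.4% and 8.35% of their lists. FOXA1 CTD-deleted had a weaker peak 755 bases from the start, with 2.76 and 7.39. The other stalk genes differed from it: RPLP0 and RPLP2 had no peak in a combined list.

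RPL6 and RPL7, proteins of the large subunit, had peaks in 4 and 3 lists, 0 of them within 500 bp of a start as defined here. RPL7 had a site with summits within 35 bases in FOXA1 CTD-deleted (4.99 and 10.2), FOXA2 full length (1.78 and 6.95) and FOXA2 CTD-deleted (4.39 and 3.96). RPL6 had 3.53 and 10.8 in FOXA1 CTD-deleted and weaker peaks elsewhere. Its fusion summit lies 61 bases from the start of PTPN11, a phosphatase gene. It is also 51 bases beyond the 5′ end of RPL6, but 7444 bases before the nearest RPL6 start in the promoter table. RPL36A had 4.99 and 9.81 in FOXA1 full length and 5.95 and 12.5 in FOXA1 CTD-deleted, 2.77 and 2.54 kb from its start. RPL31 had 4.49 and 6.20 in FOXA1 CTD-deleted and 2.02 and 1.93 in FOXA2 full length, 9.90 and 9.95 kb from its start. The RPL6 summits of FOXA1 CTD-deleted and FOXA2 full length lie beyond the gene, by 1191 and 1060 bases.

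The remaining large-subunit genes with peaks in 2 lists were weaker. RPL27 had a start peak in both full-length FOXA1 and FOXA2 lists, with 3.99 and 3.98 for FOXA1 and 3.43 and 5.49 for FOXA2. RPL24 likewise had 2.62 and 4.48 for FOXA1 and 2.27 and 24.3 for FOXA2. RPL21 had 3.62 and 6.36 in FOXA1 full length and 2.96 and 2.34 in FOXA2 CTD-deleted, 346 and 376 bases before the start. RPL15 had 3.02 and 4.86 in FOXA1 full length, 10 bases from the start of NKIRAS1, and 2.71 and 3.78 in FOXA2 full length.

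RPL11, which with RPL5 and 5S rRNA forms the particle that binds MDM2, had 2.41 and 3.29 in the fusion and 1.59 and 2.46 in FOXA2 full length. RPL32 had 2.02 and 5.43 in FOXA2 full length and 2.67 and 4.68 in FOXA2 CTD-deleted, and RPL35A 2.27 and 1.74 and 3.62 and 2.36. RPL41, the smallest protein of the ribosome, had 3.02 and 29.3 in FOXA2 full length, 20 bases into the gene, and 2.41 and 4.22 in the fusion, 24 bases from the start of ZC3H10. A further 10 RPL genes had a peak in 1 list, with strengths from 1.59 (RPL10A) to 5.26 (RPL26). In all, 27 of the 46 RPL-type genes (58.7%) had a peak in a combined list, against 59.0% of coding genes and 38.2% of the shorter ones.

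Recurrence over lists was lower than for coding genes as a whole. Of the 77 genes, 23 (29.9%) had a peak in at least 2 combined lists, against 45.5% of coding genes and 22.6% of those no longer than RPS29. At least 4 lists marked 8 (10.4%), against 27.1% and 7.83%. At least 1 list marked 53.2%, against 59.0% and 38.2%. Beside the genes no longer than RPS29, the ribosomal protein share was thus the higher value each time. The FOXA3 lists share rows and count as 2 here.

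The 32 genes with no peak in any of the 10 lists include RPSA, RPLP2, RPL8, RPL10, RPS6, RPS19 and RPS28. RPS6 is the classical target of S6 kinase and RPS19 the gene most often mutated in Diamond-Blackfan anaemia. On chromosome 19, which holds 12 of the 77 genes, 3 (25%) had a peak in a combined list, and elsewhere 38 of 65 (58.5%). All coding genes divide alike, with 23.3% on chromosome 19 and 61.8% elsewhere.

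Where the summits lay differed between lists. With the identical FOXA3 rows counted 1 time, there were 113 peaks at ribosomal protein genes, 57 of them with the summit inside the gene and 51 within 500 bp of a start. In the FOXA1 full-length list 19 of 29 (65.5%) were within 500 bp of a start, against 7.57% of that list's peaks near any coding gene. For FOXA1 CTD-deleted it was 2 of 13 (15.4%, against 1.93%), in FOXA2 full length 11 of 31 (35.5%, against 6.36%), in FOXA2 CTD-deleted 9 of 25 (36.0%, against 4.58%), and in the fusion 9 of 13 (69.2%, against 22.0%). Ribosomal protein genes are shorter (median 5011 bases, against 24170), so the bases around a start fill more of the region counted. These peak shares were not computed for the shorter coding genes. Of the 113 peaks, 42 had another protein-coding gene within 2 kb, and 18 were nearer to the start of another coding gene. Of the 51 start peaks, 13 had another coding start within 500 bp.

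**Figure D3:**
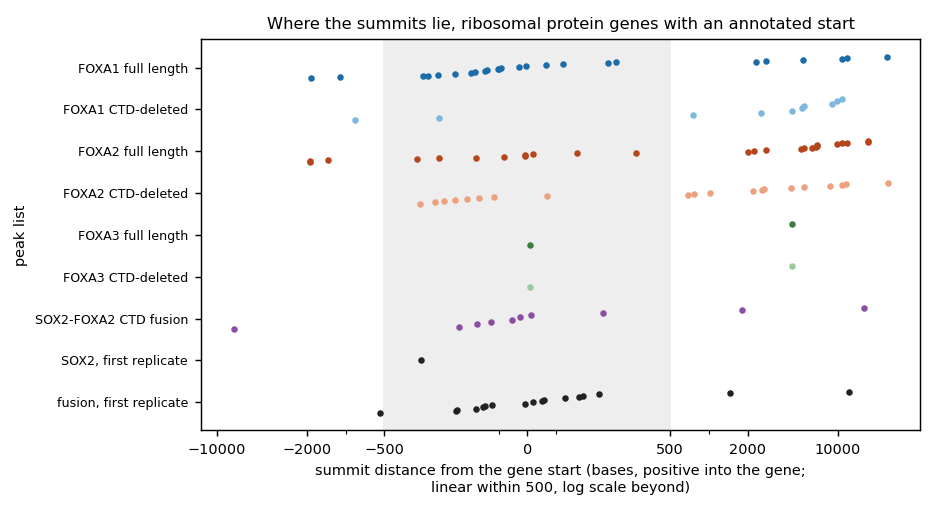
Distance of each summit from the nearest annotated start of its ribosomal protein gene, in bases (linear within 500, log scale beyond; positive values run into the gene), by list. Points are peaks at genes with an entry in the promoter table, and the grey band marks 500 bp on either side of the start. FOXA1 full length, the fusion and the first replicate of the fusion crowd into the band, while FOXA1 CTD-deleted has 1 point there.

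The FOXA1 full-length peaks at starts ranked low in their list. Their strengths had a median of 3.24 (2.44 to 15.1, n = 19 peaks), at a median rank of 81.2% from the top, against 65.7% for that list's start peaks at all coding genes. The 10 peaks elsewhere had a median strength of 5.13 (2.96 to 6.95) and a median rank of 28.6%. In FOXA2 full length the order was the other way, with a median of 3.00 at starts (rank 24.7%) and 1.86 elsewhere (rank 60.7%). In FOXA2 CTD-deleted the medians were 2.80 and 2.86.

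Sites were also counted by joining overlapping peaks of the combined lists. There were 28 sites at starts and 41 elsewhere. At starts, 12 sites were in at least 2 lists, and their summits spanned a median of 246 bases. Elsewhere 11 sites were in at least 2 lists, with a median span of 74.0 bases. The ranges overlapped, from 15 bases (RPL14) to 1062 (RPS12) at starts and from 35 (RPL7) to 600 (RPLP1) elsewhere. The joining of peaks was chosen after seeing the data, and these spans are a description.

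The replicates of FOXA2 full length disagreed at ribosomal protein genes. In 8 of 31 peaks (25.8%) the −log10 p was at least 20 in column b and below 5 in column a. Over the whole list 128 peaks split in this direction and 1 in the other, 0.286% of 45076. They include those named above at RPL4, RPL23A, RPL24, RPL41, RPLP1 and RPS29, and 1 at RPS2 (2.38 and 43.1), a gene of the decoding subunit with the snoRNA gene SNORA64 within 500 bp of the summit. By gene this is 10.4% of the 77, against 0.686% of all coding genes and 0.674% of those no longer than RPS29. It was 0 of 77 mitochondrial ribosomal protein genes, 37 of which had a peak in the list, 0 of 39 proteasome subunit genes, and 1 of 25 other translation genes. No peak at a ribosomal protein gene split in this way in the other 7 lists. Those lists held 0 (SOX2) to 29 (FOXA1 full length) ribosomal protein peaks each. Of all their peaks, 0.144% (FOXA2 CTD-deleted) to 2.4% (SOX2) split in either direction, so 0 is close to the share over all peaks. The limits of 20 and 5 were set after seeing the values. What differs between the libraries was not tested. In the FOXA2 full-length list 0 ribosomal protein genes remain when −log10 p must be at least 5 in both replicates. The median strength there was 2.27 for ribosomal protein peaks and 2.24 for all peaks, so this 0 is not particular to these genes.

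**Figure D4:**
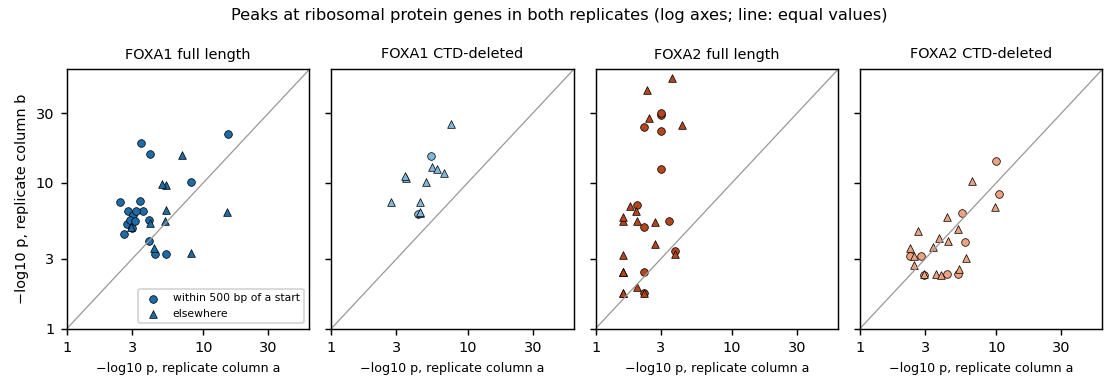
The −log10 p of each peak at a ribosomal protein gene in replicate column a (x axis) and column b (y axis), both on log axes, for the FOXA1 and FOXA2 lists. Circles are peaks within 500 bp of a start, triangles other peaks, and the line marks equal values. In the FOXA2 full-length panel 8 peaks stand above 20 in column b with column a below 5, and in the FOXA1 CTD-deleted panel all 13 peaks lie above the line.

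In the FOXA1 CTD-deleted list column b was higher for 13 of 13 peaks, as it was for 92.5% of the whole list. In FOXA1 full length it was higher for 23 of 29, against 51.2% of that list. In FOXA2 full length it was higher for 26 of 31, against 60.4%, and in FOXA2 CTD-deleted for 12 of 25, against 49.8%. In the fusion it was higher for 9 of 13, against 52.5%. Column b was thus the higher for most ribosomal protein peaks in each of these lists except FOXA2 CTD-deleted, and no replicate number says which library it is.

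SOX2 and the fusion each have a second list, made from replicate 1 by itself. The first SOX2 replicate had peaks at 2 ribosomal protein genes, or 2.6% (0.715 to 8.98), against 15.0% of coding genes. They were RPL23A (fold enrichment 3.64, −log10 p 3.96) and RPL4 (3.08, 2.9), and both lay within 500 bp of a start or end, where the coding share was 1.41%. The first fusion replicate had peaks at 20 genes, or 26.0% (17.5 to 36.7), against 35.0%, and at 16 starts, or 20.8% (13.2 to 31.1), against 8.89%. Its strongest were RPL27 (fold 3.99, −log10 p 5.28), RPS24 (4.15, 4.98) and RPL37 (3.92, 4.91). With −log10 q of at least 2, 0 ribosomal protein genes were left in either list. The share of all coding genes left at this limit is not given here, so the 0 cannot be read as particular to ribosomal protein genes.

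The 13 peaks of the fusion's combined list at these genes had a median strength of 2.55. The median rank was 64.2% for the 9 start peaks, against 56.7% for that list's start peaks at all coding genes, and 85.4% for the other 4, against 59.4% for its peaks near any coding gene. Besides the genes above it had RPS26, a Diamond-Blackfan anaemia gene (3.27 and 2.72, 126 bases before the start), and RPL18 (2.41 and 3.29), whose summit is nearer to the start of SPHK2. Without peaks nearer to another coding start it had 7 genes in place of 12.

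Other gene groups with products in translation or in a housekeeping complex gave other counts. In the order FOXA1 full length, FOXA1 CTD-deleted, FOXA2 full length, FOXA2 CTD-deleted and fusion, mitochondrial ribosomal protein genes had a peak at 26, 18, 37, 26 and 12 of 77, and cytosolic ones at 24, 12, 24, 16 and 12 of 77. At starts the mitochondrial genes had 12, 3, 17, 7 and 6, and the cytosolic ones 19, 2, 11, 9 and 9. The mitochondrial start shares were 15.6%, 3.9%, 22.1%, 9.09% and 7.79%. Those of all coding genes were lower each time, at 7.58%, 2.28%, 7.64%, 6.04% and 3.76%. A start share above the coding share was thus not particular to the cytosolic genes. Proteasome subunit genes had a start summit at 3, 0, 6, 3 and 2 of 39 (7.69%, 0.0%, 15.4%, 7.69% and 5.13%). The cytosolic genes had the larger start count than the mitochondrial genes in FOXA1 full length and the smaller in FOXA2 full length, a difference between gene groups that was not tested.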

How the data were processed

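Flag ChIP-seq peak lists of 17 samples (8 factor groups with 2 replicates, 1 input) were used as deposited. The 8 combined lists have no header and follow the IDR program's column layout, from which the deposited −log10 p of each replicate, the IDR score and the summit offset were read. The 2 first-replicate lists have no header either and follow the narrowPeak layout, in which the deposited columns are read as fold enrichment (a ratio), −log10 p-value and −log10 q-value. The submitters' processing notes name the build hg38, FastQC 0.10.1, Trim Galore, Bowtie2 2.4.4, SAMtools 0.1.18, MACS2 and deepTools 2.4.1. The roles of these tools, the control, the IDR limits and the handling of reads that map to several places are not given in the sources used here. Ribosomal protein genes have many near-identical pseudogenes, so peaks at exons carry that uncertainty. Depth is unknown. A further 4 lists were byte-for-byte copies and were not used.

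Summits on chromosomes 1 to 22 and X were joined to the RefSeq GRCh38.p14 gene table (2 kb of a gene). Starts and printed sequences came from the RefSeq GRCh38.p14 promoter table, which holds 62 of the 77 genes; for the other 15, either gene end was used. Shares have Wilson 95% intervals (scipy 1.17.1, pandas 2.3.3, Python 3.11.15). No p-value was computed, since each group has 1 combined list. Motifs were exact words on both strands. The join was tested on simulated peaks. Genes named in full are those with a peak in at least 2 combined lists (23 genes) and the strongest of each list; a few others are named after their values were seen, and some results are not reported here. The genes, gene lists and rules were chosen with earlier results of these data known. Alternatives were an IDR of at most 0.01, −log10 p of at least 5, windows of 1 and 5 kb, gene starts, equal peak numbers, the stricter IDR limit within a pair, unshared FOXA3 rows, a background of shorter genes and the first replicate. Alternatives chosen after seeing the data were 500 bp from starts and leaving out peaks nearer to another start.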

Additional observations from a re-analysis of the deposited data

How the results depend on the processing

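No paired analysis was possible because each group has 1 combined list and the results come from no test. Of 111 alternative values for 24 results, 63 stayed within the tolerance set for each, 44 moved and 4 reversed. An IDR of at most 0.01 left 2 ribosomal protein genes for FOXA1 full length, 8 for FOXA1 CTD-deleted, 0 for FOXA2 full length, 3 for FOXA2 CTD-deleted and 0 for the fusion. Of all peaks in these lists 9.16%, 53.1%, 0.0%, 12.2% and 4.86% meet this limit, so the FOXA2 full-length value was 0 for every gene. A −log10 p of at least 5 in both replicates left 7, 5, 0, 4 and 0 for FOXA1 full length, FOXA1 CTD-deleted, FOXA2 full length, FOXA2 CTD-deleted and the fusion. Over all peaks of these lists the median strength was 4.08, 4.34, 2.24, 2.96 and 2.98, below this limit each time. Within 2 kb of starts, FOXA1 CTD-deleted had 6 genes and each FOXA3 list 1. Within 500 bp, FOXA1 CTD-deleted had 2, FOXA2 full length 11, FOXA2 CTD-deleted 9 and each FOXA3 list 1. Without the rows that both FOXA3 lists hold, each had 0. Without peaks nearer to another start, the fusion had 7. Without replicate 2, SOX2 had 2 and the fusion 20; other groups have no list of 1 replicate here. At −log10 q of at least 2, both first-replicate lists had 0, with no share of all coding genes to set beside it.

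The difference between CTD-deleted and full length was -12 genes for FOXA1 and reversed to 4 with both lists at the stricter of their IDR limits (-1 at starts). For FOXA2 it was -8, and 0 at the stricter limit (0 at starts) and -2 within 500 bp of starts. At equal numbers of the strongest peaks the difference was -13 for FOXA1 and -11 for FOXA2. The fusion minus SOX2 was 12, and 1 at equal numbers and 0 at the stricter limit (0 at starts). The ribosomal protein share minus the background was negative for FOXA1 CTD-deleted (-21.5 percentage points) and FOXA2 CTD-deleted (-21.5), and reversed to 1.12 and 0.252 beside shorter genes. It was 12.8, 9.65, -0.602, -1.11, -1.04 and 9.92 beside shorter genes for FOXA1 full length, FOXA2 full length, FOXA3 full length, FOXA3 CTD-deleted, SOX2 replicate 1 and fusion replicate 1. With the 2 kb window around starts it was 14.1, 5.94, -1.23, -1.68, -0.261 and 11.3 in that order, -1.06 for FOXA1 CTD-deleted, and 1.84, a reversal, for FOXA2 CTD-deleted. Beside all coding genes it had been -7.01 for FOXA1 full length, -10.6 for FOXA2 full length and -9.00 for fusion replicate 1, so these changed sign too, from values whose interval held the coding share. The cause of these moves was not tested beyond the fewer peaks or shorter genes that each alternative uses by construction. Unknown depth limits all counts.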

Other observations

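Genes next to the family in function or name gave further values. Among paralogs of the family, RPS27L had a peak in 7 of the 8 combined lists, RPL7L1 in 5 and RPL39L in 2, and the other 5 of the 8 paralogs tested in 0. FAU, which encodes a ribosomal protein fused to a ubiquitin-like protein, had a peak in 1 list (FOXA2 full length). Of 25 other translation genes, EEF1G, a subunit of elongation factor 1, had a peak in 6 lists, and PABPC1, EIF3H and HNRNPA1 in 5 each, while EEF2 and RACK1 had 0.

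Ribosomal protein pseudogenes, mostly silent copies of these genes, had a peak in 5.90% to 8.32% of 1984 cases in the FOXA1 and FOXA2 lists, in 1.16% and 1.41% in the FOXA3 lists, in 1.01% in the fusion list and in 0 in the SOX2 list. Of the 29 ribosomal protein genes that hold a snoRNA gene, 15 (51.7%) had a peak in a combined list, and of the 48 that hold none, 26 (54.2%). Of the 113 peaks, 9 had a small RNA gene within 500 bp of the summit.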
